A study of Mus musculus with 6 samples.

Results

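The guides described here were aimed at upstream translons of 5 mouse genes of protein folding and protein turnover, namely Psmd1, Cct7, Arih2, Herc4 and Txndc12. They were taken by the host gene in the guide name, a rule that uses no measured value, although the 5 hosts were picked with earlier results of these data known. They make up 9 of the 151 named guides and 5 of the 73 hosts of the screen. Psmd1, Cct7, Herc4 and Txndc12 had 2 guides each, and Arih2 had 1. The cells were embryonic stem cells of the line #693 ES C57BL/6, with the C57/BL6 genotype, and all of them had received a pooled lentivirus that carried the guides in lentiCRISPR v2, a vector that also encodes Cas9. The groups were 3 biological replicates at day 0 and 3 at day 10, and every library came from cells infected with the pool. Of the pool, 6 guides were controls, of which 3 were non-targeting and 3 were aimed at safe sites. Whether the replicates came from separate infections is not given in the sources used here, so p-values measure the spread between these libraries.

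An upstream translon is translated although it lies ahead of the annotated protein-coding part of a transcript, and its translation can change how much of the main protein is made. A cut by Cas9 there is repaired with small insertions or deletions, and in a pooled culture a guide that slows growth becomes rarer among the counted cassettes. The 5 hosts act along the life of a protein. Cct7 encodes the eta subunit of the chaperonin TRiC, the ring complex that folds actin and tubulin, and Txndc12 encodes a thioredoxin-like oxidoreductase of the endoplasmic reticulum. Arih2 and Herc4 encode ubiquitin ligases, which mark proteins for degradation or other fates. Psmd1 encodes a large scaffold subunit of the regulatory particle of the proteasome, the machine that degrades ubiquitin-marked proteins. Core subunits of the proteasome and of TRiC are needed by dividing cells in general. That knowledge concerns loss of the proteins, while the guides were designed against translons in front of them.

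The guide sequences are shown first because the geometry of each pair sets how its values can be compared. The Psmd1 guides lie on the same strand and share 19 bases, which are in capitals, so their predicted cuts are 1 bp apart.

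Psmd1 guide 1: tCGGATTAATGGATTAGAGA

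Psmd1 guide 2: CGGATTAATGGATTAGAGAa

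The Herc4 guides lie on opposite strands of the same stretch and overlap by 16 bases. The capitals mark that overlap, which reads as the reverse complement in the other guide, and the predicted cuts are 10 bp apart.

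Herc4 guide 1: gccgTGGTAATCGCCGCGGC

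Herc4 guide 2: gccgGCCGCGGCGATTACCA

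The guides of Cct7 and Txndc12 could be placed on the mouse genome, because they matched windows around annotated gene starts in RefSeq (build GRCm38.p6, 250 bases before to 50 after each start). Here the capitals mark the bases that follow the match, each of them an NGG as required by Cas9 (the PAM).

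Cct7 guide 1: ggcggacaactgacgagttgCGG

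Cct7 guide 2: atcatcttggaagcggcttcAGG

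Txndc12 guide 1: gttgggctgaacggcgataaGGG

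Txndc12 guide 2: aaaaaatctgggaatccgagGGG

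Arih2 guide 1, the least GC-rich of the 9 at 25% GC, matched no window.

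Arih2 guide 1: gaaagatctttaaacattac

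Txndc12 guide 2 lies at chr4:108834650-108834669 and Txndc12 guide 1 at chr4:108834672-108834691, both on the plus strand, which is the strand of the gene. Guide 2 covers the bases from 28 to 9 before the annotated start, so its predicted cut falls 11 bases before the first base that RefSeq gives for the transcript. Guide 1 runs across the start, from 6 bases before it to 13 bases after it, and its predicted cut falls after the first 11 transcribed bases. The cuts are 22 bp apart, on either side of the annotated start.

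Cct7 guide 1 lies at chr6:85452078-85452097 on the plus strand and Cct7 guide 2 at chr6:85452107-85452126 on the minus strand, with predicted cuts 15 bp apart. The window that held them belongs to Pradc1, a neighbouring gene on the minus strand, and is set around a Pradc1 start at position 85451970. Counted along Cct7 itself, the sites lie 573 to 592 and 602 to 621 bases after the annotated Cct7 start. Counted against Pradc1, they lie 127 to 108 and 156 to 137 bases before that start. Whether they fall in an exon or an intron of Cct7 was not analysed here. Among all 145 targeting guides, 9 matched a window of their own host (6.21%) and 6 matched only a window of another gene (4.14%). No window held the guides of Psmd1, Herc4 or Arih2, although all 5 hosts had a window.

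The letters ATG, searched on both strands, were present in 4 of the 9 guides, against 37 of 145 targeting guides (25.5%). They were the 2 Psmd1 guides, which hold the same ATG as written, and Cct7 guide 2 and Arih2 guide 1, which hold it on the other strand. GC content ran from 25% for Arih2 guide 1 through 35% for both Psmd1 guides to 75% for both Herc4 guides, with a median of 50% against 60% over all tested guides.

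Named guides had between 102313 and 602476 counts in the day 0 libraries and between 21991 and 784149 in the day 10 libraries, with day 10 replicate 3 the shallowest. Values below are counts per 1e6 counts (CPM) after scaling each library with TMM, the trimmed-mean method of edgeR. All 9 guides passed the filter of at least 10 counts in at least 3 libraries. Their lowest counts above 0, before scaling, were in day 10 replicate 3, with between 23 and 702 counts. There the exact 95% Poisson interval, which covers counting error only, ran from 662 to 1566 CPM for the rarest of them, Herc4 guide 1. Of the 136 tested guides, 2 had a missing entry in some library, namely Psmd1 guide 2 and a guide of Rps6 with a mean of only 94.8 CPM at day 0.

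The comparison of day 10 with day 0 asks whether cells with these guides became rarer or more common in the pool. Of the 9 guides, 1 changed, Herc4 guide 2, which was higher at day 10 by the quasi-likelihood test of edgeR at an adjusted p under 0.05. Over all 136 tested guides the same rule called 29 (21.3%), of which 20 were lower (14.7%) and 9 higher (6.62%), so the count among the 9 was near the background. Of the 5 hosts, again 1 changed, Herc4, which was higher, against 25 of 67 tested hosts (37.3%), of which 15 were lower (22.4%) and 10 higher (14.9%). No guide of the proteasome subunit, the chaperonin subunit, the ligase Arih2 or the thioredoxin-like protein was called in either direction. The median log2 fold change was 0.12 for the 9 guides and 0.0024 for all tested guides. The median was 0.055 for the 5 hosts and 0.020 for all tested hosts. The 6 control guides ran from −0.42 to 0.55 with a median of 0.064. The 3 non-targeting ones stood at 0.13, 0.32 and 0.55, and the 3 aimed at safe sites at 0.0024, −0.37 and −0.42. The upper end was also the highest value of all 136 tested guides, so no guide could lie above it. Of the 9 guides, 8 lay inside the range, but the share of all tested guides inside it was not counted. The exception was Psmd1 guide 2, whose value rests on a missing entry described below. In 5 of the 9 guides the change had 1 sign in all 3 screens, against 64 of 136 tested guides (47.1%).

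Herc4 encodes a ubiquitin ligase of the HERC family, with a HECT catalytic domain and a domain that resembles RCC1. Herc4 guide 2 was among the most abundant guides of the pool and ranked 3 of 136 at day 0. It stood at 24674, 25051 and 25797 CPM in the day 0 libraries and at 29293, 29559 and 31853 CPM in the day 10 libraries, replicates 1 to 3. Every day 10 library lay above every day 0 library, which was the case for 24 of 136 tested guides (17.6%). The day 0 mean was 25174 ± 572 CPM and the day 10 mean 30235 ± 1407 CPM (SD, n = 3 each), and the fitted rise was 1.20-fold. In log2 units this was 0.26 ± 0.054 (SE, edgeR adjusted p = 0.0103). Within the numbered screens the log2 ratios of day 10 to day 0 were 0.25, 0.24 and 0.30.

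Herc4 guide 1, whose predicted cut is 10 bp away, was rare. It had 1149, 925 and 993 CPM at day 0 and 1265, 1139 and 1044 CPM at day 10, so the days overlapped. The fit gave it 0.19 ± 0.18 in log2 (SE, edgeR adjusted p = 0.510). It was higher at day 10 in 3 of 3 screens, by 0.14, 0.30 and 0.072. The estimates of the Herc4 guides thus differed by less than the standard error of the rarer one, whose own estimate was about as large as that error. With the counts of both guides summed, Herc4 had 26197 ± 520 CPM at day 0 and 31384 ± 1311 CPM at day 10 (SD, n = 3 each), a rise of 0.25 ± 0.049 in log2 (SE, edgeR adjusted p = 7.8e-04). Here guide 2 made up between 95.6% and 96.8% of that sum. The host value is therefore close to a second reading of guide 2.

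Whether Herc4 passed the threshold depended on the scaling. Scaled to the control guides by TMM with no trimming, the host stood at 0.12 ± 0.088 (SE, edgeR adjusted p = 0.381). That scaling moved the median of all tested hosts by −0.13, to −0.11, and the median of all tested guides by −0.13, to −0.12. It called 15 of 67 hosts (22.4%), 15 lower and 0 higher. With DESeq2 size factors 15 hosts were lower and 15 higher, with Herc4 among the latter at 0.27 (edgeR adjusted p = 0.00191). Scaled to the control guides by median ratios, a choice made after the data were seen, it stood at 0.28 ± 0.18 (SE, edgeR adjusted p = 0.378), and 2 of 67 were called (2.99%), both lower. Herc4 guide 2 missed the threshold under both scalings to the control guides, at 0.12 and 0.28. It also missed it without day 0 replicate 1, 2 or 3, at 0.25, 0.25 and 0.27 (edgeR adjusted p = 0.0856, 0.0638 and 0.0534). In those fits 3 of 135 guides (2.22%), 5 of 136 (3.68%) and 9 of 135 (6.67%) were called, while the host was called in each. Non-targeting guides 2 and 3, at 0.32 and 0.55, had larger log2 fold changes than Herc4 guide 2, though neither was past the threshold (edgeR adjusted p = 0.261 and 0.141). With 75% GC, the Herc4 guides also stand at the GC-rich end. With a linear GC trend removed per library, the host stood at 0.14 (edgeR adjusted p = 0.225), with 22 of 67 hosts called (32.8%). The slope of that trend in day 10 replicate 1 was 0.179 log2 units per 10 percentage points of GC over all guides, and 0.072 without the guides that had a missing entry. With the slopes fitted without those guides, chosen after the data were seen, the host stood at 0.19 (edgeR adjusted p = 0.0139), with 24 of 67 called (35.8%), and guide 2 at 0.20 (edgeR adjusted p = 0.0525). The part of GC content in the rise of Herc4 was not tested further.

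Arih2, the other ligase, belongs to the RING-between-RING class and works together with cullin-RING ligases. Its guide had 2064, 2097 and 1804 CPM in the day 0 libraries and 1669, 2565 and 1543 CPM in the day 10 libraries. Day 10 replicate 2 was the highest of all 6 libraries, while the other day 10 libraries were the lowest, so the spread at day 10 covered the whole range of day 0. The estimate was −0.0015 ± 0.20 in log2 (SE, edgeR adjusted p = 0.994). The screens gave −0.31, 0.29 and −0.23. Without day 10 replicate 2 the log2 fold change was −0.26, and without day 10 replicate 1 it was 0.24. With the GC trend over all guides removed it was 0.32 ± 0.21 (SE, edgeR adjusted p = 0.346). In the table of hosts the same counts gave 0.059 ± 0.17 (SE, edgeR adjusted p = 0.832), since the dispersions there were estimated over hosts.

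Psmd1 guide 2 held the largest irregularity among the 9 guides. It had 166, 176 and 971 counts at day 0 and 1383 and 43 counts in day 10 replicates 2 and 3, and its entry in day 10 replicate 1 was missing. The missing entry was read as 0, but whether it is a true count of 0 or an entry lost from the table was not tested. As CPM these were 1616, 1551 and 1594 at day 0 and 0, 1770.5 and 1951 at day 10. Outside that library its day 10 values were slightly above those of day 0. If it was a true count of 0, day 10 replicate 1 allows up to 4.68 CPM (3 counts), at least 345-fold lower than in day 0 replicate 1 and at least 397-fold lower than the mean of the other day 10 libraries. The median tested guide had 2707.5 counts in that library.

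Psmd1 guide 1, whose predicted cut is 1 bp away, was counted in all 6 libraries. It had 4947, 4247 and 4619 CPM at day 0 and 4728, 4714 and 5899 CPM at day 10, so day 10 replicate 1 lay within the range of the other libraries. In the 5 libraries that counted both guides, guide 1 had between 2.66 and 3.06 counts for each count of guide 2. At those ratios, the 3028 counts of guide 1 in day 10 replicate 1 would go with between 989 and 1137 counts of guide 2. The unnamed sequences within 5 edits of Psmd1 guide 2 did not hold such counts. There were 2 of them, with 2 counts in all and 0 in day 10 replicate 1. Whether less similar unnamed sequences held them was not tested.

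The estimates for this gene moved with the missing entry. For Psmd1 guide 2 the fit gave a log2 of −0.50 ± 1.11 (SE, edgeR adjusted p = 0.830), and without day 10 replicate 1 it was 0.18 ± 0.16 (SE, edgeR adjusted p = 0.418). With the entry read as 0, the replicate block gave −1.37 ± 1.37 (SE, edgeR adjusted p = 0.542) and limma voom −4.77 ± 1.82 (SE, limma adjusted p = 0.0616). Psmd1 guide 1 changed by 0.12 ± 0.11 (SE, edgeR adjusted p = 0.539). Summed over both guides, Psmd1 had 6563, 5798 and 6212 CPM at day 0 and 4728, 6484 and 7850 CPM at day 10. The low value was that of the library with the missing entry. The host stood at −0.037 ± 0.14 in log2 (SE, edgeR adjusted p = 0.880). It turned to 0.098 ± 0.11 (SE, edgeR adjusted p = 0.528) with the guide left out, and to 0.12 without day 10 replicate 1. In none of these did a decrease of the Psmd1 guides pass the threshold.

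Cct7 guide 1 had 3846, 4705 and 4116 CPM at day 0 and 3988, 5484 and 4900.4 CPM at day 10. It was higher at day 10 in 3 of 3 screens, by 0.052, 0.22 and 0.25, but the days overlapped. The fit gave 0.18 ± 0.14 in log2 (SE, edgeR adjusted p = 0.394). Without day 10 replicate 1 it was 0.33 ± 0.11 (SE, edgeR adjusted p = 0.0126), so leaving out that library decided this call, in a fit that called 47 of 136 guides (34.6%). Cct7 guide 2, the more abundant, had 9659, 9622 and 9132 CPM at day 0 and 9972, 9050 and 9166 CPM at day 10. Its estimate was −0.0037 ± 0.074 (SE, edgeR adjusted p = 0.994). Summed, Cct7 had 13694 ± 564 CPM at day 0 and 14187 ± 305 CPM at day 10 (SD, n = 3 each), a difference of 0.055 ± 0.071 in log2 (SE, edgeR adjusted p = 0.610). This was the narrowest estimate after that of Herc4 among the 5 hosts.

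The estimates of the Txndc12 guides had opposite signs, but neither guide passed the threshold. Guide 1, across the annotated start, had 876, 908 and 963 CPM at day 0 and 1230, 959 and 1906 CPM at day 10. It was higher at day 10 in 3 of 3 screens, by 0.49, 0.079 and 0.98, and day 10 replicate 2 lay within the range of day 0. The value in day 10 replicate 3 rested on 42 counts, with an exact 95% Poisson interval from 1373 to 2576 CPM. Guide 2, before the annotated start, had 3700.1, 3613 and 3374 CPM at day 0 and 2517, 3264 and 3176 CPM at day 10. Every day 10 library lay below every day 0 library for guide 2, as for 28 of 136 tested guides (20.6%). The log2 fold changes were 0.49 ± 0.24 for guide 1 and −0.27 ± 0.13 for guide 2 (SE, edgeR adjusted p = 0.168 and 0.164). In sum the host stood at −0.099 ± 0.11 (SE, edgeR adjusted p = 0.559).

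The ratio of the guides of a host within a library does not depend on how libraries are scaled, so it tests directly whether a pair changed alike. For Txndc12, guide 1 had 0.237, 0.251 and 0.286 counts per count of guide 2 at day 0 and 0.489, 0.294 and 0.600 at day 10. Every day 10 ratio lay above every day 0 ratio. The days did not overlap in either direction for 12 of the 63 hosts with 2 tested guides (19%). On the log2 scale, with 0.5 counts added, the ratio rose by 0.78 ± 0.27 (SE), at an unadjusted p of 0.0286 in the limma fit over the 63 hosts. After Benjamini-Hochberg adjustment over them the limma p was 0.200, so the difference did not pass the threshold. Without day 10 replicate 2, whose ratio was nearest to day 0, it was 1.07 ± 0.16 (SE, limma adjusted p = 0.0488). Txndc12 was then 1 of 2 hosts called among 63 (3.17%). Of the 10 alternatives for this ratio, only that fit called it. Leaving out any other library gave a limma adjusted p between 0.248 and 0.592. With all 6 libraries the limma fit called 0 of the 63 hosts (0%) at an adjusted p under 0.05. It had 10 at an unadjusted p under 0.05 (15.9%).

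The other pairs gave no such difference. The Cct7 ratio changed by 0.19 ± 0.19 and the Herc4 ratio by −0.087 ± 0.15 (SE, limma adjusted p = 0.694 and 0.771). For Psmd1 the ratio changed by 3.66 ± 2.98 with the missing entry read as 0, and by −0.033 ± 0.14 without day 10 replicate 1 (SE, limma adjusted p = 0.655 and 0.947). In the latter fit the standard error was close to those of Herc4 and Cct7. Among the 63 pairs, 18 shared at least 10 bases as the Psmd1 and Herc4 pairs did.

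Other hosts of protein folding and turnover in the pool were taken from a list of gene symbol prefixes. It found 6 hosts, of which 5 could be tested, and 1 was lower and 0 were higher at an edgeR adjusted p under 0.05. Over all 67 tested hosts 22.4% were lower and 14.9% higher, so 1 of 5 lower was near the background. Their median log2 fold change was −0.051, against 0.020 for all tested hosts. The lower one was Trim28, which encodes a corepressor of retrotransposons with a RING domain and is better known for silencing chromatin than for protein turnover. Its mean was 3617 CPM at day 0 and 2674 CPM at day 10, and the fit gave −0.39 ± 0.12 in log2 (SE, edgeR adjusted p = 0.0151). Hsp90ab1, which encodes a cytosolic chaperone of the HSP90 family, stood at 0.025 ± 0.056 (SE, edgeR adjusted p = 0.791). Clpx, the unfoldase of the mitochondrial Clp protease, stood at −0.062, and Elobl, a relative of the elongin B adaptor of cullin ligases, at −0.051. Trim43b stood at −0.0019. Fbxo15, an F-box gene of pluripotent cells, was counted in no library. Huwe1, a large HECT ligase that the prefixes did not cover and that was added after its values were seen, stood at 0.073 ± 0.074 (SE, edgeR adjusted p = 0.519).

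In order of log2 fold change the hosts were Txndc12, Psmd1, Cct7, Arih2 and Herc4, at ranks 20, 26, 38, 39 and 59 from the lowest of 67. Up to Arih2, each gap between neighbours was smaller than the larger of their standard errors, and the gap between Arih2 and Herc4 was not tested. The place of Psmd1 rests on its missing entry read as 0. With guides missing in a library left out, Psmd1 stood at 0.098, above Arih2 at 0.064 and Cct7 at 0.056. Likeness over the 6 libraries was measured as the root mean square difference of log2 CPM after centring each host on its mean. By this measure Rab5a and Hdgf were nearest to Herc4, both at 0.055, and had log2 fold changes of 0.17 and 0.29. Nr1h2 and Parg were nearest to Cct7, at 0.029 and 0.036. Fbp2 and Dppa3 were nearest to Psmd1, with its missing entry read as 0, at 0.083 and 0.106. The same pair was nearest to Txndc12, at 0.065 and 0.063. The nearest to Arih2 were Phb and Pabpc1, at 0.164 and 0.204, the largest distances among the 5.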

How the data were processed

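Guide cassettes were counted in 6 libraries of a pooled CRISPR-Cas9 screen. The authors deposited raw counts per guide sequence and library, per the file headers. The submitters' processing notes name Bowtie2 2.3.4.3 without a role, and the rule for mismatches is not given in the sources used here. No entry was 0, and missing entries were taken as 0. The 216 unnamed sequences were left out of library sizes and tests. The name Elobl guide 1 stood for 2 sequences, kept apart as guides and summed for the host.

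Day 10 was compared with day 0 with edgeR 4.0.16 (quasi-likelihood, TMM, day as the only term, R 4.3.3) over all named guides that had 10 counts or more in 3 or more libraries, and over hosts with guide counts summed and the library scaling of the guide table. P-values were adjusted over all tested guides or hosts (Benjamini-Hochberg, threshold 0.05). Log2 fold changes above 0 stand for higher values at day 10, with a standard error of the absolute value over √F. The ratios of guides were tested with limma 3.58.1. Predicted cuts are 3 bases from the PAM. Scripts were tested on simulated data.

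Per the file headers a number marks a screen with a library of each day, so a fit with that number as a block was an alternative, and the main fits had no block. As a check, deviations from the day means correlated at −0.093, −0.198 and −0.017 within pairs 1 to 3. That check covered all tested guides with missing entries read as 0, so the guides with such entries weigh heavily in it. It was not repeated without them and does not settle whether the libraries are paired.

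All guides of the 5 hosts are described. Members and gene lists were chosen with earlier results of these data known. Alternatives used DESeq2 1.42.0, limma voom, other scalings and filters, GC trends, the replicate block, and each library left out.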

Additional observations from a re-analysis of the deposited data

How the results depend on the processing

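Median ratios over the control guides, and GC slopes fitted without the guides missing in a library, were added after the data had been seen. Among 318 comparisons of a single guide, host or ratio with an alternative, 260 kept direction and side of the threshold, 12 lost the call, 2 gained it and 44 changed sign. None of the sign changes (0) involved a value past the threshold on either side. The fit without a count filter tested the same 136 guides and 67 hosts as the main fit. Its comparisons, counted among those kept, therefore could not differ.

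Past the threshold were 1 guide and 1 host, both of Herc4. There were 0 guides and 0 hosts with untrimmed TMM over the control guides (Herc4 host 0.12) and with median ratios over them (0.28). The same counts came with the GC trend over all guides removed, without (0.14) or with the replicate block (0.14). With GC slopes fitted without the guides missing in a library there were 0 guides, or 1 with the block, and 1 host in each case. Leaving out each library in turn gave 0 to 2 guides, 1 host in each fit, and 0 to 1 guide ratios, with the Herc4 host between 0.22 and 0.29. The replicate block alone left 1 guide and 1 host, while over all 136 tested guides it called 12 in place of 29 and over all hosts 25 as before. Over all guides, voom called 50, untrimmed TMM over the control guides 23 and median ratios over them 0. With the GC trend over all guides removed, 10 were called. The block gave 0.26 for the Herc4 host (edgeR adjusted p = 0.00295), turned the Arih2 host to −0.043 and changed no other call or direction among the hosts.

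Some values that changed sign exceeded their standard error, and others did not. With the GC trend removed, Arih2 guide 1 at 0.32 ± 0.21 and the Psmd1 host at 0.19 ± 0.10 exceeded it (SE). For Cct7 guide 2, no value with a changed sign exceeded its standard error. These values were 0.0095 with DESeq2 size factors, 0.031 with control median ratios and 0.022 with voom. With the GC trend removed without and with the block they were 0.098 and 0.077. With the slopes fitted without missing guides, without and with the block, they were 0.044 and 0.029. For Arih2 guide 1 the values with a changed sign were, in that order of settings, 0.0099, 0.0090, 0.14, 0.32, 0.24, 0.14 and 0.073. It was also at 0.0072 in the DESeq2 test and at 0.024 with guides missing in a library left out. Psmd1 guide 1 was at −0.012 with untrimmed TMM over the control guides, where the hosts Cct7 and Arih2 were at −0.072 and −0.061. The Psmd1 host was at 0.0043 with control median ratios, at 0.19 and 0.20 with the GC trend removed without and with the block, at 0.055 and 0.082 with the slopes fitted without missing guides, and at 0.098 with those guides left out. The Txndc12 host was at 0.070 and 0.072 with the GC trend removed, without and with the block. The cause was not tested.

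Without single libraries, the ranges were −0.26 to 0.24 for Arih2 guide 1, −0.064 to 0.058 for Cct7 guide 2, −1.51 to 0.18 for Psmd1 guide 2, −0.23 to 0.29 for the Arih2 host and −0.14 to 0.12 for the Psmd1 host. For the change of the guide ratio they were −0.18 to 0.015 for Herc4, −0.033 to 5.54 for Psmd1 and 0.56 to 1.07 for Txndc12. Depth limits the rare guides most, since Herc4 guide 1 had 23 counts in day 10 replicate 3.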
